A study of Homo sapiens with 12 samples.

Results

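The genes described here are 9 genes of the machinery that silences messages guided by small RNAs: the Argonautes AGO1, AGO2, AGO3 and AGO4, the GW182 family TNRC6A, TNRC6B and TNRC6C, the RNA helicase MOV10 and the LIM-domain protein LIMD1. They were listed by name, out of 19775 genes that have at least 1 probe set with a single gene symbol in the array annotation, by a rule that uses no signal. The annotation gave 40 probe sets with 1 of these symbols alone, and 36 of them, covering all 9 genes, were bright enough to be tested. Signals came from 12 arrays, 1 per RNA sample, of 293T cells, a human embryonic kidney line that carries SV40 large T antigen. All 3 groups were transiently transfected with a plasmid by polyethylenimine (PEI) and collected 48 hours later, and each had 4 biological replicates. The control group received an empty vector, another group a vector with the human tRNA gene chr1.tRNA68-Gly(GCC), and the remaining group a vector with an artificially made hairpin for CU1276, which according to the labels is a small RNA cut from that tRNA. All results come from 1 cell line, and the share of cells that took up a plasmid and the level of CU1276 were not analysed here.

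An Argonaute protein holds a small RNA such as a microRNA and uses it to find messages with matching sequence. A GW182 protein then binds the Argonaute through its glycine-tryptophan repeats and brings in the deadenylases that shorten the poly(A) tail, after which the message is decapped and degraded. MOV10 unwinds RNA at the targeted messages, and LIMD1 links Argonaute to GW182 and to the translation start machinery. AGO2 is the member best known for cutting a fully matched target, and AGO1, AGO3 and AGO4 act mostly through the GW182 proteins. The study is known for treating CU1276 as a microRNA, so the comparison asks whether the messages for the proteins that would carry it differed when it was supplied in either form.

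None of the 9 genes differed between vectors after correction for all tested probe sets. In each of the 3 comparisons 0 of 36 member probe sets passed (limma, Benjamini-Hochberg adjusted p under 0.05), and the share called among all 32768 tested probe sets was 0% in each comparison as well. At an unadjusted p under 0.05, limma gave 0 of 36 for the tRNA vector against the empty vector, where the share over all tested probe sets was 3.78%. It gave 0 of 36 for the hairpin vector against the empty vector, beside 2.65% over all, and 2 of 36 for the hairpin vector against the tRNA vector, beside 3.88%. The 2 were the brightest probe sets of MOV10 and TNRC6A. For each gene the brightest probe set with its symbol alone is used below. Differences in signal between probe sets are not read as differences in the amount of RNA. A log2 difference is given with its limma standard error (± SE, n = 4 arrays per group).

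The precision of these arrays bounds how large a change in the brightest probe sets could have been. For the tRNA vector over the empty vector, the 95% intervals of the 9 genes reached from 0.712-fold to 1.28-fold at their outermost ends. For the hairpin vector over the empty vector they reached from 0.742-fold to 1.41-fold, and for the hairpin vector over the tRNA vector from 0.776-fold to 1.50-fold. The intervals are not corrected for the number of genes. Their fit leaves out the replicate number, which arrays of different groups share, and intervals with that number as a block are not given. The median log2 difference over the 9 genes was -0.073 with the tRNA vector against the empty vector, with 3 genes higher and 6 lower, beside a median of 0.0030 over all 13952 tested genes. With the hairpin vector against the empty vector it was 0.059, with 6 higher and 3 lower, beside 0.0042 over all genes. Between the vectors it was 0.13, with 7 higher in the hairpin group and 2 lower, beside 0.0028 over all genes. These medians are descriptions without a test, and comparisons that share a group of arrays are not independent of each other.

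**Figure D1:**
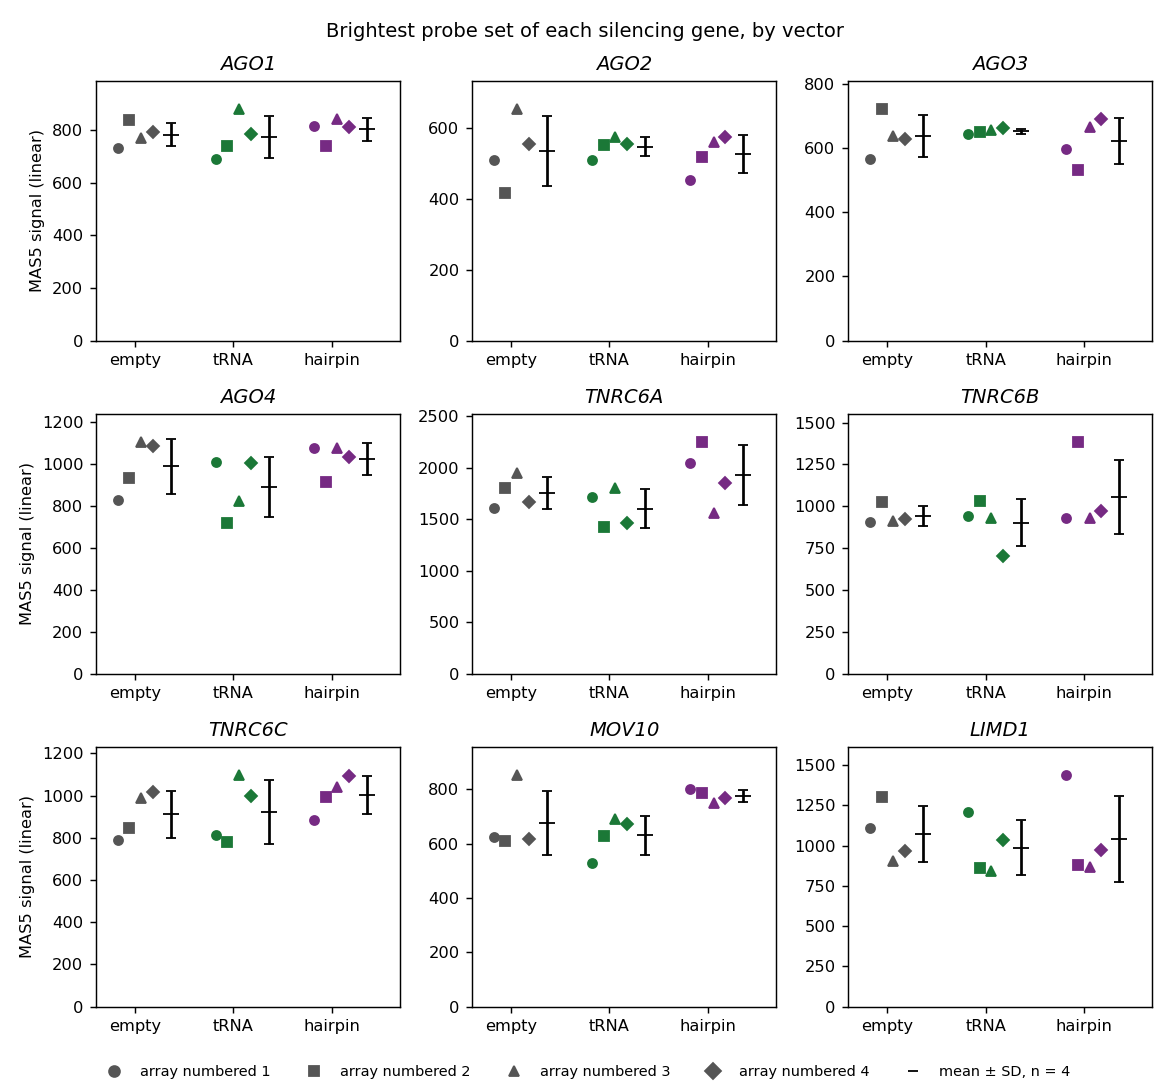
MAS5 signal on a linear scale of the brightest probe set of each gene, with 4 arrays per vector (marker shape gives the replicate number, bars give mean ± SD). The 4 hairpin vector arrays of MOV10 lie at 751 to 802, above all 4 tRNA vector arrays at 530.5 to 690.3, and the groups of the other 8 genes overlap in every comparison.

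AGO2, the Argonaute that can cut its target, had signals of 509.8, 416, 653 and 555 in the 4 empty vector arrays, 508, 552, 573 and 555 in the tRNA vector arrays, and 454, 517, 559 and 573 in the hairpin vector arrays. The empty vector arrays hold both the lowest and the highest of the 12 values, and the 3 groups overlap throughout. The means were 534 ± 98.5, 547 ± 27.6 and 526 ± 53.7 (SD, n = 4), an order in which no neighbours differ beyond their spread. Against the empty vector, the log2 difference of the tRNA vector was 0.053 ± 0.14 and that of the hairpin vector -0.0084 ± 0.14 (limma adjusted p = 1 and 0.9999). This is the only probe set with the AGO2 symbol alone. A further 3 probe sets are annotated to AGO2 together with another gene and were not counted as members. The brighter 2 of them had log2 differences from the empty vector of -0.13 ± 0.10 and -0.072 ± 0.18 in the tRNA group and -0.039 ± 0.10 and 0.13 ± 0.18 in the hairpin group.

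AGO4, AGO1 and AGO3, which are consecutive protein-coding genes on chromosome 1 in RefSeq (GRCh38.p14), did not differ between vectors either. Mean signals of AGO1 were 782 ± 44.0 (empty), 774 ± 81.1 (tRNA) and 802 ± 43.3 (hairpin; SD, n = 4). Its log2 differences against the empty vector were -0.020 ± 0.11 and 0.037 ± 0.11, with the narrowest interval of the 9 genes. The latter was 0.0049 when empty vector array 1 was left out and 0.074 when hairpin vector array 2 was. AGO3 had 638 ± 64.8, 653 ± 8.24 and 622 ± 72.5, with differences of 0.038 ± 0.12 and -0.040 ± 0.12. The 4 tRNA vector arrays of AGO3 lay within 642 to 662, inside the range of each of the other groups.

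AGO4 was the Argonaute with the widest gap between the vectors. Its signals were 827, 932, 1106 and 1089 in the empty vector arrays, 1009.7, 721, 825 and 1006 in the tRNA vector arrays, and 1075, 913, 1076 and 1035 in the hairpin vector arrays. The tRNA vector arrays numbered 2 and 3 were low, while the other 2 lay among the arrays of the other groups. The hairpin vector stood 0.21 ± 0.13 above the tRNA vector on the log2 scale (limma adjusted p = 0.9997) and was higher in 4 of 4 same-number comparisons. Without tRNA vector array 2 the difference was 0.12. Of the 3 tested AGO4 probe sets, 1 was higher in that comparison and 2 were lower, so the direction was not shared within the gene. Across the 12 arrays the log2 signals of the 3 neighbours correlated at r = 0.16 for AGO4 with AGO1, 0.49 for AGO1 with AGO3 and 0.14 for AGO4 with AGO3, given as a description of arrays that share their group and scaling.

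TNRC6A, the GW182 protein first described in human cells, had signals of 1603, 1801, 1951 and 1664 in the empty vector arrays, 1718, 1423, 1800.0 and 1462 in the tRNA vector arrays, and 2046, 2249, 1557 and 1853 in the hairpin vector arrays. The highest values were hairpin vector arrays 2 and 1, but hairpin vector array 3 lay below every empty vector array, and all groups overlap. The means ran from 1601 ± 187 with the tRNA vector through 1755 ± 155 with the empty vector to 1926 ± 294 with the hairpin vector (SD, n = 4), and neighbours in that order did not differ beyond their spread. The log2 difference between the ends of the order, hairpin over tRNA vector, was 0.26 ± 0.12, with a 95% interval of 0.00032 to 0.52 (limma adjusted p = 0.9997). Same-number differences were 0.25, 0.66, -0.21 and 0.34, so 3 of 4 pairs were higher. Of its 6 tested probe sets 5 had the same direction.

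TNRC6B and TNRC6C, the paralogs with the same role, did not pass in any comparison, and the groups of their brightest probe sets overlap. Mean signals of TNRC6B were 941 ± 58.4 (empty), 902 ± 140.0 (tRNA) and 1053 ± 222 (hairpin; SD, n = 4). The hairpin mean rests on 1 array: the 4 values were 930.4, 1384, 928 and 969.5. Its log2 difference from the empty vector was -0.073 ± 0.15 in the tRNA group and 0.14 ± 0.15 in the hairpin group, the latter 0.0048 without hairpin vector array 2. TNRC6C had 911 ± 111, 924 ± 151 and 1004 ± 88.3, with differences of 0.014 ± 0.13 and 0.14 ± 0.13, the latter 0.078 without empty vector array 1. These errors come from the fit without the replicate number. Same-number differences of the hairpin from the empty vector were 0.041, 0.43, 0.030 and 0.072 for TNRC6B. For TNRC6C they were 0.16, 0.23, 0.073 and 0.10, so both genes were higher in 4 of 4 pairs. With the tRNA vector, TNRC6B was higher than with the empty vector in 3 of 4 pairs and TNRC6C in 2 of 4. Between the vectors 7 of 7 tested TNRC6B probe sets and 4 of 6 TNRC6C probe sets were higher with the hairpin vector. Probe sets of 1 gene share its RNA and are not replicates.

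MOV10, the helicase, gave the only brightest probe set whose groups did not overlap. Its signals were 625, 609, 853 and 618 in the empty vector arrays, 530.5, 629.9, 690.3 and 673 in the tRNA vector arrays, and 802, 786, 751 and 767 in the hairpin vector arrays. All 4 hairpin vector arrays lay above all 4 tRNA vector arrays, and above 3 of the 4 empty vector arrays, array 3 being the exception. The means were 676 ± 118, 631 ± 71.6 and 777 ± 22.0 (SD, n = 4). The log2 difference of the hairpin vector from the tRNA vector was 0.31 ± 0.13, with a 95% interval of 0.027 to 0.59, and the limma adjusted p was 0.9997. Against the empty vector the hairpin vector stood at 0.21 ± 0.13, or 0.33 without empty vector array 3, and the tRNA vector at -0.093 ± 0.13. Same-number differences between the vectors were 0.60, 0.32, 0.12 and 0.19, which is higher in 4 of 4 pairs. Without single arrays the difference ran from 0.23 to 0.35. The other MOV10 probe set had the same direction with a smaller difference and a wider error, 0.15 ± 0.32, and its groups overlapped.

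LIMD1, the adaptor, had signals of 1109, 1299, 907 and 967 in the empty vector arrays, 1209, 860.5, 843 and 1038 in the tRNA vector arrays, and 1438, 882, 869.7 and 974 in the hairpin vector arrays. In every group arrays 1 or 2 gave the highest value and the groups overlap. The log2 difference from the empty vector was -0.12 ± 0.17 in the tRNA group and -0.058 ± 0.17 in the hairpin group, the least precise estimates of the 9 genes. The former was -0.22 when tRNA vector array 1 was left out and -0.020 when empty vector array 2 was. The design of this probe set carries the suffix that the array maker gives to probes that can bind other transcripts.

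**Figure D2:**
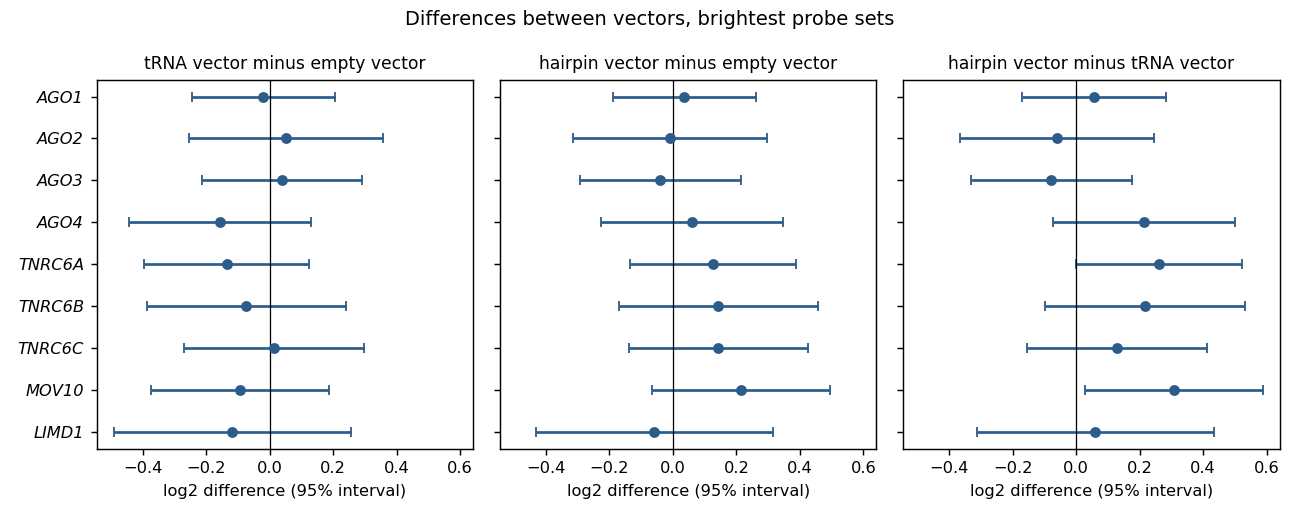
Log2 differences of the brightest probe set of each gene with 95% limma intervals, for the 3 comparisons of 4 arrays against 4. Intervals that leave out 0 are those of MOV10 (0.027 to 0.59) and TNRC6A (0.00032 to 0.52) for the hairpin vector minus the tRNA vector, neither of which passes after adjustment.

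Groups that do not overlap were about as rare among the member probe sets as on the whole array. For the tRNA vector against the empty vector 1 of 36 did so, beside 2.60% of all tested probe sets. This was a dim AGO1 probe set with 16.1 to 64.1 in the empty vector arrays and 64.5 to 86.7 in the tRNA vector arrays (0.86 ± 0.49 on the log2 scale), a direction that its brightest probe set did not share. For the hairpin vector against the empty vector it was 0 of 36, beside 2.12%. Between the vectors it was 2 of 36, beside 2.63%: the MOV10 probe set above, and a dim TNRC6C probe set that was lower with the hairpin vector, at 18.7 to 45.4 against 57.3 to 108.5 (-1.21 ± 0.60). With 36 probe sets a single one is 2.78%, so these counts are near the background. These probe sets were singled out after their values were seen.

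How far a probe set can be read followed its brightness. The 9 brightest probe sets had geometric mean signals of 532 to 1746 and standard errors of 0.11 to 0.17, with a median of 0.13. The other 27 tested ones had signals of 44.7 to 943 and standard errors of 0.12 to 1.18, with a median of 0.36. Log2 differences of the brightest lay between -0.16 and 0.31 over the 3 comparisons, and those of the other 27 between -1.27 and 1.26. The largest of these came from TNRC6B and TNRC6C probe sets with single arrays near 10 to 14 on the signal scale. The remaining 4 member probe sets, 1 for AGO4, 1 for TNRC6C and 2 for LIMD1, had geometric mean signals of 12.8 to 28.3, below the filter at 43.3, and were not tested.

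**Figure D3:**
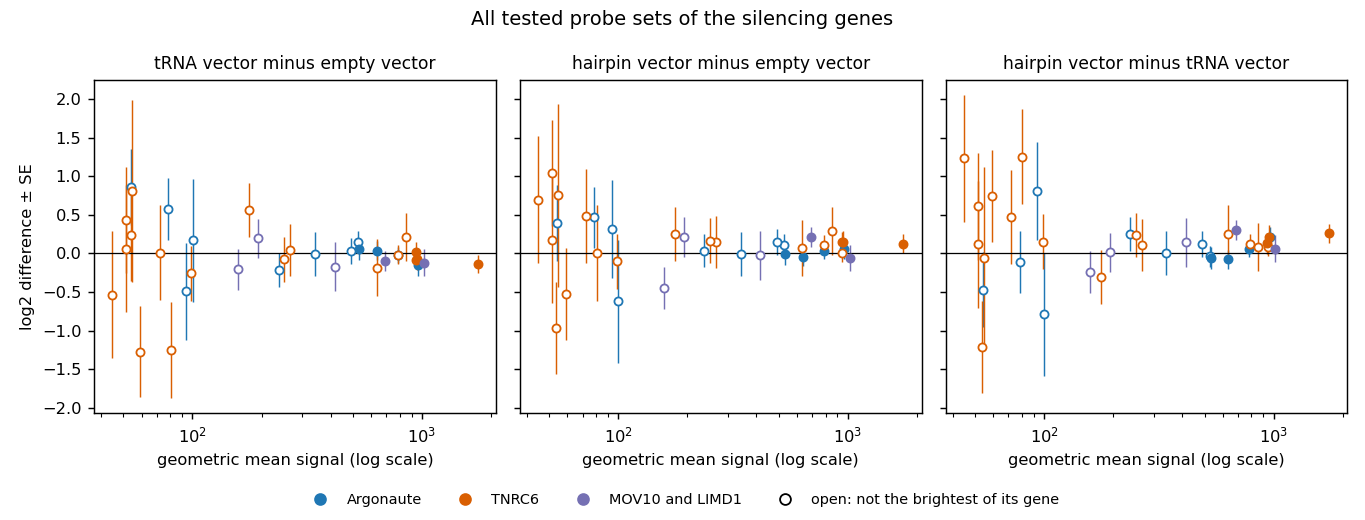
Log2 difference ± limma SE of the 36 tested probe sets against their geometric mean signal over 12 arrays (log scale), for the 3 comparisons. Filled points are the brightest probe set of each gene and lie within -0.16 to 0.31, and the open points spread up to -1.27 and 1.26 at low signal.

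A few member probe sets differed between replicate numbers. Arrays that share a number across the 3 groups also shared the level of the Bacillus control RNAs, which are added in labelling: 1726 to 1834 in the arrays numbered 1, 331 to 389 in those numbered 2, and 20.0 to 26.1 in those numbered 3 and 4. The ratio of the GAPDH signal at the 3' end to that at the 5' end, a sign of RNA integrity, was 1.47, 1.52 and 1.67 in the arrays numbered 1 and 1.18 to 1.39 in all 9 others. The part of either in the pattern was not tested, and the labels do not say what the numbers share. An F test of the number beside the vector, added after the data were seen, called 4 of 36 member probe sets (11.1%, limma adjusted p under 0.05), below the 15.8% of all tested probe sets. They were 3 of TNRC6B and 1 of AGO3.

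The smallest p belonged to the second brightest TNRC6B probe set. Its signals in the arrays numbered 1 were 469 (empty), 626 (tRNA) and 479 (hairpin). In the other arrays they were 729, 1079 and 897 (empty), 946, 934 and 1076 (tRNA), and 914, 1509 and 1132 (hairpin). All 3 arrays numbered 1 lie below all 9 others, whatever the vector. The log2 difference of number 1 from the mean of the others was -0.95 ± 0.13 (n = 3 arrays per number), in the fit with number and vector. In the fit without the number, the vectors stood at 0.21 ± 0.31 and 0.29 ± 0.31 over the empty vector. The latter errors include the differences between numbers, so the errors of these fits cannot be set against each other. Same-number differences from the empty vector were 0.42, 0.38, -0.21 and 0.26 with the tRNA vector, higher in 3 of 4 pairs. With the hairpin vector they were 0.031, 0.33, 0.48 and 0.34, higher in 4 of 4 pairs. The limma F test over all the numbers gave an adjusted p of 5.7e-04. The brightest TNRC6B probe set did not pass the same test (limma F adjusted p = 0.12), and its highest values were in the arrays numbered 2.

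The same was seen in the third brightest AGO3 probe set. Its signals were 219, 204 and 255 in the arrays numbered 1 and 300.1 to 503.7 in the others. The log2 difference was -0.80 ± 0.15, and the limma F test over all the numbers gave an adjusted p of 0.0078. A dimmer TNRC6B probe set had 156 to 219.1 in the arrays numbered 1 and 219.4 to 485 in the others. Its difference was -0.80 ± 0.18, and the same F test gave an adjusted p of 0.0074. The last, the third brightest of TNRC6B, was instead highest in the arrays numbered 2, at 951 to 1271. Like the brightest LIMD1 probe set, it carries the suffix for probes that can bind other transcripts. Over all member probe sets, the arrays numbered 1 lay below all others in 5 of 36 (13.9%), above the 7.26% of all tested probe sets. The same arrays lay above all others in 0 of 36, beside 5.60% of all tested probe sets. Without the arrays numbered 1 the F test called 1 of 36, that same TNRC6B probe set, beside 3.34% of all tested probe sets.

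**Figure D4:**
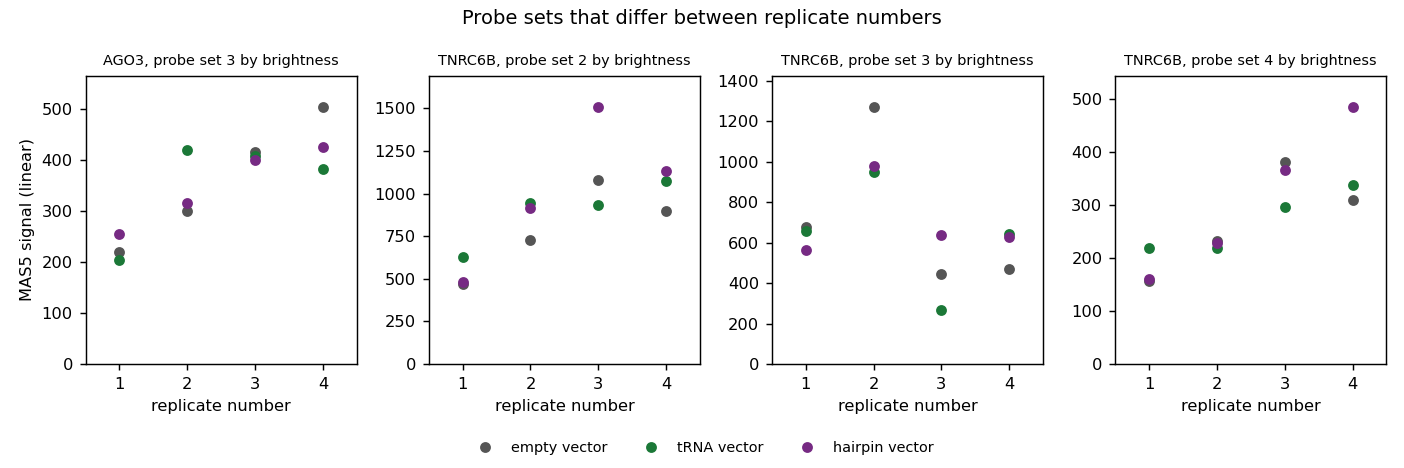
MAS5 signal on a linear scale of the 4 member probe sets called by the F test of the replicate number, with 1 point per array and colour for the vector. In the second brightest TNRC6B probe set the 3 arrays numbered 1 lie at 469 to 626 and the 9 others at 729 to 1509.

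The upstream sequences of MOV10 and TNRC6B are printed because these genes gave the clearest separations in the data, between the vectors and between replicate numbers. Both are the 250 bases that end just before the annotated start of the gene, from RefSeq (GRCh38.p14), plus strand, chr1:112674189-112674438 for MOV10 and chr22:40044584-40044833 for TNRC6B, and capitals mark matches to GGGCGG, a GC box, on either strand.
MOV10: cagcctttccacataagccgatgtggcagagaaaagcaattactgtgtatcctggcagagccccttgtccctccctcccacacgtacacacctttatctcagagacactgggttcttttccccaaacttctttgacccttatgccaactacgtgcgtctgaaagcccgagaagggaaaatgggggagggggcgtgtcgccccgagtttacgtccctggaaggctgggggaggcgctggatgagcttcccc
TNRC6B: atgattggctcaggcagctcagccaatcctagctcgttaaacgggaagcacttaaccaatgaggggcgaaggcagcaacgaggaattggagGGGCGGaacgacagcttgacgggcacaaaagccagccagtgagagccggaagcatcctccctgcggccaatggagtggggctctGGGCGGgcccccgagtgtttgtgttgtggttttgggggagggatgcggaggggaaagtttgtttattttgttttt
The TNRC6B window holds 2 such matches and the MOV10 window 0, where 42.6% of 35116 windows of that length hold at least 1. The GC content was 56% for MOV10 and 56.4% for TNRC6B, beside a median of 58% over all windows. A match or its absence is a description of these letters only.

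Genes that act with the members did not pass either. Of 78 listed partners 70 were measured, and 0 passed in each of the 3 comparisons (limma adjusted p under 0.05), with 1, 0 and 3 at an unadjusted p under 0.05, beside 3.78%, 2.65% and 3.88% of all tested probe sets. With the tRNA vector 34 were higher and 36 lower than with the empty vector, and with the hairpin vector 33 and 37. Among 11 measured genes that load small RNAs or chaperone Argonaute, 7 were higher and 4 lower in the tRNA group and 4 and 7 in the hairpin group. TARBP2, the partner of DICER1, had the smallest p of them in both, at 0.16 ± 0.11 and 0.21 ± 0.11, or 0.073 and 0.12 without empty vector array 2. Among 14 Argonaute-bound helicases and RNA-binding proteins, 6 were higher and 8 lower in the tRNA group and 5 and 9 in the hairpin group. ZSWIM8, part of a ubiquitin ligase that degrades Argonaute during target-directed microRNA decay, stood at -0.26 ± 0.12 with the tRNA vector, and the helicase HELZ at 0.24 ± 0.15 with the hairpin vector. Without empty vector array 2, at 1429 beside 2279 to 2453 in the others, the HELZ difference was 0.053.

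The downstream enzymes that GW182 proteins recruit were likewise spread around 0. Of 17 measured genes of deadenylation, 8 were higher and 9 lower with each vector. PABPC1, which coats the poly(A) tail, stood at 0.14 ± 0.089 with the tRNA vector and CNOT3, a CCR4-NOT subunit, at 0.23 ± 0.16 with the hairpin vector. Leaving out array 2 of the named vector gave 0.089 for PABPC1 and 0.10 for CNOT3, and CNOT3 stood at 0.34 without empty vector array 1. Of 21 genes of decapping and P-bodies, 9 were higher and 12 lower in the tRNA group and 11 and 10 in the hairpin group. LSM4, a subunit of the ring that promotes decapping, stood at 0.19 ± 0.076 and 0.16 ± 0.076. Its tRNA vector arrays, at 6735 to 7733, all lay above its empty vector arrays, at 6091 to 6632. Such groups without overlap made up 2.60% of all tested probe sets in that comparison. Without single arrays the LSM4 difference of the tRNA vector ran from 0.16 to 0.22. Of 7 measured paralogs of the members, 4 were higher in the tRNA group and 5 in the hairpin group. WTIP, a LIM protein related to LIMD1, was dim and stood at -0.81 ± 0.60 with the tRNA vector. That value rests on tRNA vector array 2, which read 12.1 beside 64.5 to 143.8 in the other 3, and was -0.052 without it. TRIP6, another LIM protein, stood at 0.15 ± 0.081 with the hairpin vector and at 0.092 without empty vector array 2.

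The genes most like each member across the 12 arrays were found by Pearson correlation of log2 signal after quantile normalization, over 13943 other genes, and are given as a description. The highest were NIF3L1 (r = 0.85) for AGO1, G3BP1 (0.91) for AGO2, PAQR7 (0.89) for AGO3 and LRFN4 (0.91) for AGO4. For the GW182 family they were GLIDR (0.87) for TNRC6A, HIVEP2 (0.91) for TNRC6B and CTBP1 (0.91) for TNRC6C. For the other 2 genes they were FAT3 (0.91) for MOV10 and POLR3GL (0.94) for LIMD1. The next in line were CENPC (0.84), MTF2 (0.89), GDAP2 (0.89), NCEH1 (0.89), LARGE2 (0.86), GINS1 (0.87), NORAD (0.91), PRKACA (0.90) and RAD21 (0.94), in the same order of members. Each is the top of a search over all genes on arrays that share replicate numbers and scaling.

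Of the arrays as a whole, the median signal was 75.9 to 104 over the 12 arrays. Of 8 measured markers chosen for 293T, 7 were above the filter, among them the neurofilaments NEFL and NEFM and vimentin (VIM), and LHX1 was below it. Of the markers of other cell types, 2 of 4 for B cells, 1 of 4 for T and myeloid cells, 4 of 5 for fibroblasts and 1 of 2 for erythroid cells were above the filter. COL1A1, a fibroblast collagen, had a geometric mean of 799, and the others above the filter had 75.6 (CD79A), 52.0 (CD79B), 56.9 (CD3D), 64.8 (COL1A2), 64.8 (COL3A1), 45.5 (DCN) and 73.6 (HBB). MS4A1, PTPRC, CD3E, CD14, LYZ, LUM and ALAS2 were below it. Summed signals of the 4 measured B cell markers were 176 to 326 (empty), 129.8 to 285 (tRNA) and 173 to 324 (hairpin).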

How the data were processed

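The authors deposited linear MAS5 signal intensities with a column for each array. MAS5 is named without a version in the submitters' processing notes, and a genome build is not given in the sources used here. Symbols came from the array's annotation, with the names checked by Entrez identifier against RefSeq, which changed 0 and lacked 54. The log2 of each signal was used without an offset. Of 54675 probe sets, 62 controls and 21845 whose mean log2 signal fell below the 40th percentile were left out.

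The 12 arrays were fitted with 1 mean per group with limma 3.58.1 in R 4.3.3 (eBayes with an intensity trend). P values, two-sided, were adjusted by Benjamini-Hochberg over 32768 tested probe sets, with a threshold of 0.05. The code was tested on simulated data. All 9 members were named, with the partner of smallest p per list and comparison with the empty vector, and the 2 genes of most like pattern per member. The rule for members names genes and uses no signal, but members and lists were chosen with earlier results of these data known.

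Same-number arrays were checked for pairing by correlating deviations from group means, which gave r = 0.099 to 0.36, over 0.1 in 11 of 12 pairs. All 4 pairs passed for hairpin against empty vector and hairpin against tRNA vector, and 3 of 4 for tRNA against empty vector. The replicate number therefore entered as a block in an alternative fit. Other alternatives changed the normalization, offset, filter, trend, arrays, probe set choice and the Bacillus control level as a block.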

Additional observations from a re-analysis of the deposited data

Results flagged for a closer look

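In 3 of 27 groups of 4 arrays, 1 array of a brightest probe set stood apart from the other 3 by more than Dixon's 95% limit, where chance gives about 1 in 20 groups. For TNRC6B, empty vector array 2 read 1028 beside 904 to 922 in the others, and hairpin vector array 2 read 1384 beside 928 to 969.5. For MOV10, empty vector array 3 read 853 beside 609 to 625. The log2 difference of MOV10 between the hairpin and the empty vector was 0.21 with that array and 0.33 without it.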

How the results depend on the processing

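Calls were counted in every alternative setting but the mean of all probe sets of a gene. In these, 0 member probe sets and 0 partner genes passed in any comparison. Over all 21 alternative settings the smallest limma adjusted p of a member gene was 0.55. Over all tested probe sets the count moved from 0 to 6 for hairpin against tRNA vector with the replicate block, and to 4 (tRNA against empty vector), 3 (hairpin against empty vector) and 8 (hairpin against tRNA vector) with the Bacillus control level as a block. The replicate block changed no call of a member or partner. Of 776 gene values under alternatives 745 kept their sign and their side of the threshold and 31 changed sign. For many of these values the sign could not change. Altering the filter, trend, block or groups fitted leaves the log2 difference as it was. So does leaving out an array of the group outside the comparison. With the mean of all tested probe sets of a gene, the log2 difference turned for AGO1 (0.13, tRNA against empty vector), AGO3 (-0.040, 0.037 and 0.077), AGO4 (0.20, -0.030 and -0.23, each in the order tRNA against empty, hairpin against empty and hairpin against tRNA vector) and LIMD1 (-0.054, hairpin against tRNA vector). Leaving out single arrays turned these signs as well. For tRNA against empty vector the ranges were -0.084 to 0.034 (AGO1), -0.060 to 0.16 (AGO2), -0.019 to 0.0997 (AGO3), -0.14 to 0.042 (TNRC6B), -0.074 to 0.089 (TNRC6C) and -0.14 to 0.024 (MOV10). For hairpin against empty vector they were -0.12 to 0.095 (AGO2), -0.097 to 0.034 (AGO3), -0.023 to 0.12 (AGO4) and -0.22 to 0.040 (LIMD1). For hairpin against tRNA vector they were -0.10 to 0.0080 (AGO2) and -0.11 to 0.16 (LIMD1). The cause was not tested. The median over the 9 genes kept its sign in each comparison, and without single arrays it ran from -0.091 to -0.012, from 0.0049 to 0.12 and from 0.055 to 0.19. With 4 arrays per group, changes smaller than the intervals given cannot be told from 0 in the fit that leaves out the replicate number. The width of these intervals includes differences between numbers, and intervals with the number as a block are not given. Dim probe sets allow far larger changes.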
